A study of Mus musculus with 21 samples.

Results

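The genes described here are 36 autophagy and lysosome genes of the mouse, chosen by name for their place in the pathway. Earlier results of these data were known when they were chosen. All 36 were found among the 21872 gene symbols of both count tables, and all 36 were tested at both ages. They were 9 genes of autophagosome initiation and nucleation, 6 of the conjugation machinery, 5 of the LC3 and GABARAP family, 3 cargo receptors, 2 transcription factors and 11 lysosome genes. RNA was sequenced from mouse brain in 21 libraries of 4 groups. Control libraries came from mice given water, and TETA libraries from mice given trientine (TETA), a drug that binds copper and that the labels equate with copper deficiency. The younger groups, at embryonic day 18.5 (E18.5), held 6 libraries each; the older groups, at 7 weeks after birth, held 5 control and 4 TETA libraries. The labels name no strain, genotype or dose, state no allele, and do not say how the embryos were exposed. The protocol text speaks of prefrontal cortex of males at 7 weeks only, and gives no region or sex for E18.5. Nothing in the labels says whether libraries came from separate animals, so every p-value measures only the spread between these libraries, which may be technical.

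Macroautophagy encloses cytoplasm in a membrane, the autophagosome, and delivers it to the lysosome, where acid hydrolases break it down. A kinase complex and a lipid kinase complex start the membrane, a ubiquitin-like conjugation system attaches LC3 and GABARAP proteins to it, and cargo receptors tie ubiquitin-marked cargo to those proteins. TFEB and TFE3 are transcription factors that switch on lysosome and autophagy genes, and neurons, which do not divide, depend on this route to clear proteins and organelles. The study concerns copper in brain development and autism spectrum disorder; copper is a known cofactor of the autophagy-starting kinases ULK1 and ULK2.

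Library totals lay between 14678265 and 24308555 counts in the E18.5 groups and between 17838051 and 24035857 in the older groups, and the 36 genes took 0.277% to 0.48% of them. Neuronal markers were abundant in every library. Oligodendrocyte markers summed to 64.0 to 74.4 CPM in E18.5 controls (CPM are counts expressed relative to library size), and the defining marker Opalin was at 0 in both E18.5 groups. Control replicate 1-1 at E18.5 stood apart: 1940 genes at 0 in it were multiples of 11 in every other E18.5 library and were divided by 11, and none of them was among the 36. At 7 weeks all 13 striatum markers were lower in TETA, with a summed level of 721 to 913 CPM in control and 281 to 397 in TETA. The 2 groups did not overlap in that sum, so at 7 weeks the TETA effect and the striatal content of the dissected tissue cannot be told apart.

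The first comparison asks whether autophagy and lysosome transcripts differed after TETA at 7 weeks. Only Ctsl, which encodes the lysosomal cysteine protease cathepsin L, passed the test, and it was lower in TETA. It was 1 of 36 genes called, against 9.96% of all 14240 genes tested by edgeR at an adjusted p under 0.05; 0 of 36 were higher, against 5.67% of all genes, and 1 was lower, against 4.28%. The 36 genes had a median log2 fold change (TETA minus control) of -0.018 and a range of -0.18 to 0.096. Over all genes tested the median was 0.00019 and the median size of change was 0.074, which is larger than the 0.028 of the 36 genes.

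Ctsl lies at chr13:64359337-64370890 on the minus strand (GRCm38, GENCODE M21). Its level in the 5 control libraries was 86.4, 99.4, 91.7, 83.3 and 85.4 CPM after TMM scaling, the trimmed-mean correction for library composition. In the 4 TETA libraries it was 75.6, 79.1, 85.1 and 74.9 CPM. TETA replicate 3 lay above the lowest control, so the groups overlapped, while the other 3 TETA libraries lay below all controls. The control mean was 89.3 ± 6.48 CPM (SD, n = 5) and the TETA mean 78.7 ± 4.65 (SD, n = 4), and Ctsl fell by 0.18 on the log2 scale (SE 0.051, edgeR adjusted p = 0.0252). The call was lost without control replicate 2 (adjusted p = 0.0681), control replicate 3 (0.0539), TETA replicate 1 (0.082) or TETA replicate 4 (0.0803), each by edgeR. In bulk tissue, fewer cells of a type and less RNA per cell cannot be told apart.

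Npc2 and Ctsd had the next smallest p-values and did not pass. Npc2 encodes the soluble protein that takes cholesterol from lysosomal contents and hands it to the membrane protein NPC1. Its levels were 55.9, 57.0, 53.7, 53.7 and 58.2 CPM in control and 54.1, 51.4, 45.4 and 50.2 in TETA. The highest TETA library lay just above the lowest controls, and TETA replicate 3 was the lowest of all 9. The log2 fold change was -0.15 (SE 0.048, edgeR adjusted p = 0.0533), and it passed by DESeq2 (adjusted p = 0.048) and by edgeR without TETA replicate 1 (adjusted p = 0.0244). Without TETA replicate 3 it was -0.10 (edgeR adjusted p = 0.218). With a score of the striatum markers added to the edgeR model it was 0.072 (adjusted p = 0.998). The striatum sums did not overlap between the groups, so that fit cannot show whether the direction holds.

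Ctsd encodes the aspartic protease cathepsin D, which is abundant in neuronal lysosomes. Its levels were 197, 214, 197, 194 and 206 CPM in control and 192, 187, 187 and 189 in TETA. Every TETA library lay below every control library. The log2 fold change was -0.095 (SE 0.034, edgeR adjusted p = 0.0822). Ctsd was the only one of the 36 genes whose groups did not overlap at 7 weeks, against 11.2% of all genes tested.

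At an unadjusted p under 0.05 there were 7 genes of 36, against 24.0% of all genes tested. That number was 4 without control replicate 2, 4 with a replicate block and 1 with the striatum marker score in the model. Of the 7 genes, 6 were lysosome genes with lower TETA means. Beside Ctsl, Npc2 and Ctsd they were Lamp1 and Lamp2, which encode the main lysosomal membrane glycoproteins, and Ctsb, which encodes the protease cathepsin B; these last 3 and Atg16l1 are named after their values were seen. Their log2 fold changes were -0.084 for Lamp1 (SE 0.032), -0.095 for Lamp2 (SE 0.04) and -0.058 for Ctsb (SE 0.027), with edgeR adjusted p-values of 0.105, 0.141 and 0.205. The remaining gene, Atg16l1, whose protein directs LC3 conjugation to the membrane, had a log2 fold change of 0.091 (SE 0.044, edgeR adjusted p = 0.207). With the striatum marker score in the model the values were 0.055 for Lamp2 and -0.17 for Atg16l1 (each with an edgeR adjusted p of 0.998). The striatum sums did not overlap between the groups, so that fit cannot show whether these directions or the count of 7 genes hold.

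Among the 11 lysosome genes, 9 had a log2 fold change below 0 at 7 weeks and 2 above (Mcoln1 at 0.071 and Npc1 at 0.014), with a median of -0.058. Among the 20 autophagosome genes (initiation and nucleation, conjugation, LC3 and GABARAP), 0 were called, 12 were below 0 and 8 above, and the median was -0.013. All 3 cargo receptors and both transcription factors were not called, with Tfeb at -0.038 (SE 0.1) and Tfe3 at 0.0064 (SE 0.059). The LC3 and GABARAP genes ran from -0.072 (Gabarapl2) to 0.0015 (Map1lc3a). Sqstm1, which encodes the cargo receptor p62, was at 439 ± 14.8 CPM in control (SD, n = 5) and had a log2 fold change of -0.017 (SE 0.032).

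**Figure D1:**
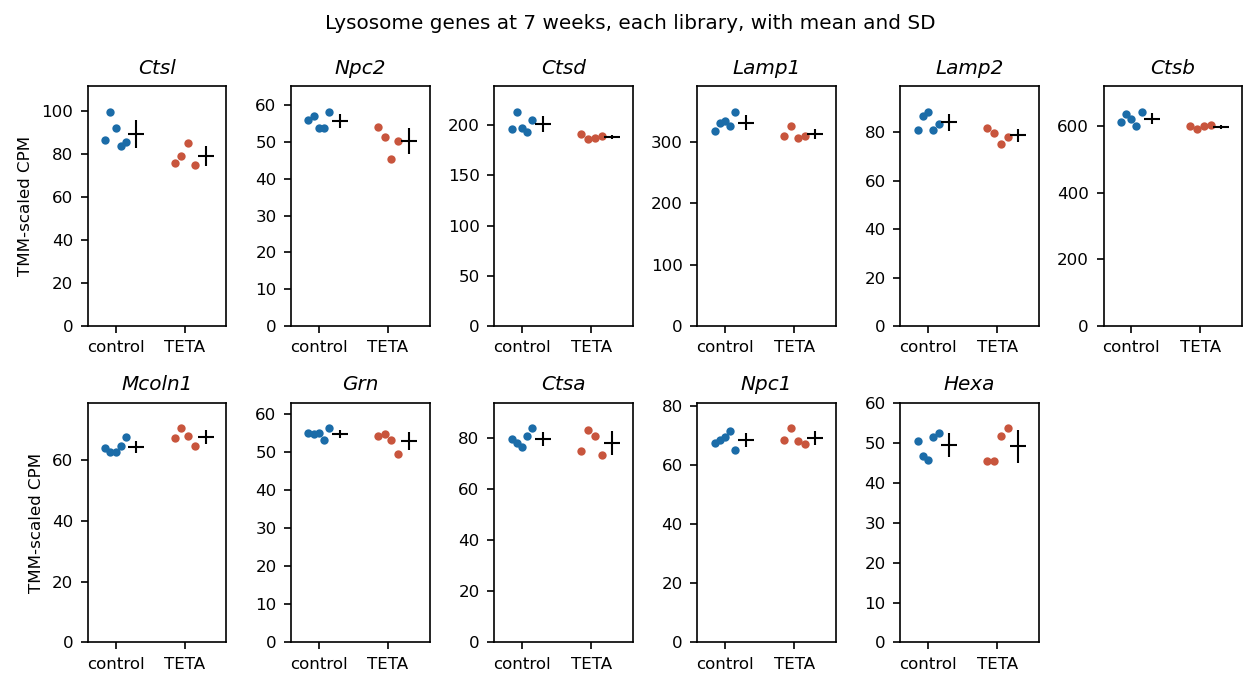
Level of each of the 11 lysosome genes at 7 weeks in TMM-scaled CPM (vertical axes, each from 0), for 5 control and 4 TETA libraries (points) with the group mean and SD (black). The genes are ordered by p-value: Ctsl had means of 89.3 CPM in control and 78.7 in TETA, and in Ctsd every TETA library lies below every control library.

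Markers of other cell types were set beside these values. Of 12 microglia markers, 0 were called at 7 weeks and 1 had an unadjusted p under 0.05; 7 were below 0, with a median log2 fold change of -0.036, and their summed level was 367 to 412 CPM in control and 372 to 404 in TETA. Of 8 oligodendrocyte markers, 0 were called, but 4 had an unadjusted p under 0.05 and 7 were below 0, with a median of -0.12; their sums were 6450 to 7616 CPM in control and 5794 to 6787 in TETA. Of 8 astrocyte markers, 1 was lower (Aldh1l1), 4 had an unadjusted p under 0.05 and 7 were below 0, with a median of -0.055 and sums of 1244 to 1416 CPM in control and 1249 to 1311 in TETA. Of 8 endothelial markers, 1 was higher (Flt1), 5 had an unadjusted p under 0.05 and 4 were below 0, with a median of 0.067 and sums of 208 to 228 CPM in control and 208 to 234 in TETA. Of 8 neuron markers, 1 was higher (Snap25), 2 had an unadjusted p under 0.05 and 6 were below 0, with a median of -0.026. Of the 5 blood markers tested, 0 were called and 4 were below 0, with a median of -0.077. Of the 6 choroid plexus markers tested, 1 was lower (Clic6), and the sum of all 8 reached 61.5 CPM in 1 control library against 7.13 or less in every TETA library. Medians below 0, the sign of the lysosome median, were thus found in every marker list but the endothelial one, with choroid plexus at -0.22 and striatum at -1.40. Of these markers the blood marker Hbb-bh1 alone was at 0 in a whole group; it, Aldh1l1, Clic6, Flt1 and Snap25 are named after their values were seen. The part of the markers in this paragraph in the Ctsl difference was not tested. For the striatum markers a fit was made with a striatum marker score added to the edgeR model. In it 0 of 14240 genes were called, with 712 at an unadjusted p under 0.05. Ctsl had a log2 fold change of -0.44 there (edgeR adjusted p = 0.894). The striatum sums did not overlap between the groups, so this fit cannot separate the TETA effect from striatal content.

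Other genes of the pathway, from 5 lists, were mostly not called at 7 weeks: 4 of 133 tested were higher and 2 lower, a share called of 4.51% against 9.96% of all genes tested. Of 38 other autophagy genes 2 were higher and 2 lower (10.5%), about the share of all genes. Among them Atg16l2, a paralogue of Atg16l1, rose by a log2 fold change of 0.34 (SE 0.081) from 15.4 to 19.4 CPM, and Plekhm1, an adaptor for fusion of autophagosomes with lysosomes, rose by 0.23 (SE 0.058). In the same list Ulk2, which encodes a kinase that starts autophagy, had a log2 fold change of -0.13 (SE 0.032), lower in TETA. Vcp, an ATPase that extracts ubiquitinated proteins, was also lower, at -0.11 (SE 0.028). Plekhm1 is named after its values were seen. Of 40 other lysosomal hydrolases and cofactors, 1 was higher: Galc, which encodes the galactolipid-degrading enzyme of myelin turnover, at 0.16 (SE 0.047). Of 18 subunits and accessory proteins of the V-ATPase, the pump that acidifies lysosomes, 1 was higher (Atp6v0e, 0.29, SE 0.072) and 15 had values below 0. All 33 genes of lysosomal membrane and transport and all 4 tested regulators of the MiT/TFE factors were not called.

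At E18.5 the same comparison gave no call. By edgeR 0 of the 36 genes and 0 of 13794 genes tested (0%) passed; at an unadjusted p under 0.05 there were 2 of 36, against 4.78% of all genes. That number was 0 without control replicate 2-1, control replicate 3-1 or TETA replicate 3-1, 1 without control replicate 1-1 or 3-2 or TETA replicate 1-1, 1-2 or 3-2, and 4 with control replicates 1-1 and 1-2 and TETA replicate 1-2 left out together. DESeq2 called 10 genes of the whole table. Log2 fold changes of the 36 genes ran from -0.057 to 0.11 with a median of 0.0059, beside a median of -0.0027 over all genes. For all 36 genes the control and TETA libraries overlapped; the groups did not overlap in 0.312% of all genes tested. Without control replicates 1-1 and 1-2 and TETA replicate 1-2, 0 of the 36 were called and 3 genes of the whole table were. Among cell-type markers at this age, 0 were called, but the endothelial sum did not overlap between groups, at 147 to 166 CPM in control and 167 to 180 in TETA, and 3 of the 7 endothelial markers tested had an unadjusted p under 0.05. The microglia sums were 82.6 to 91.5 CPM in control and 81.8 to 94.2 in TETA, and the astrocyte, oligodendrocyte and neuron sums also overlapped. Of 13 striatum markers, 10 were below 0 and 2 had an unadjusted p under 0.05, with a median log2 fold change of -0.041. The striatum sums overlapped, at 495 to 573 CPM in control and 508 to 540 in TETA. The part of all these markers in the values of the 36 genes was not tested.

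The 3 smallest p-values at E18.5 belonged to Atg9a, Npc1 and Gabarapl1. Atg9a encodes the lipid scramblase carried by the vesicles that seed autophagosomes. Its lowest, median and highest levels were 63.5, 65.9 and 72.1 CPM in the 6 control libraries and 67.9, 71.7 and 75.5 in the 6 TETA libraries. Control replicates 2-2 and 3-2 lay within the TETA range and the other 4 below it. The log2 fold change was 0.098 (SE 0.041, edgeR adjusted p = 0.971).

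Npc1 encodes the lysosomal membrane protein that exports cholesterol. Lowest, median and highest levels of Npc1 were 46.1, 47.4 and 53.3 CPM in control and 48.9, 51.2 and 58.9 in TETA. Control replicate 2-2 was the only control library inside the TETA range. The log2 fold change was 0.11 (SE 0.049, edgeR adjusted p = 0.996).

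Gabarapl1 encodes a GABARAP-family protein that is lipidated onto autophagosomes. Across libraries its lowest, median and highest levels were 171, 179 and 190.0 CPM in control and 175, 187 and 194 in TETA. The groups overlapped over most of their range, and the log2 fold change was 0.053 (SE 0.036, edgeR adjusted p = 0.996). Ctsl, the gene called at 7 weeks, had a log2 fold change of -0.029 (SE 0.057) at E18.5. The other pathway lists had 0 of 133 genes called at this age.

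**Figure D2:**
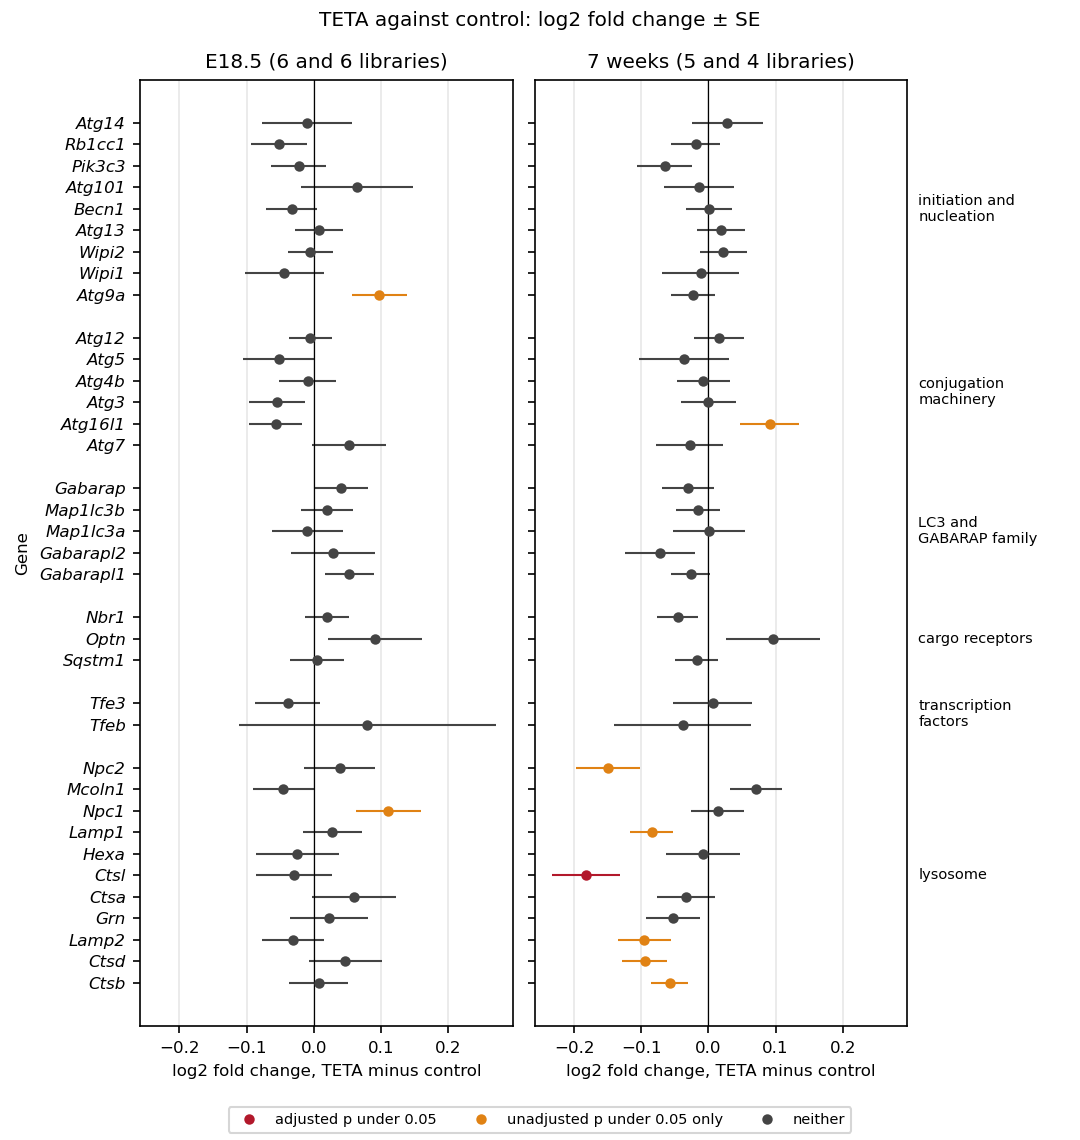
Log2 fold change of each of the 36 genes (TETA minus control, horizontal axes; bars are SE) at E18.5 (left) and 7 weeks (right), grouped by role; red marks an edgeR adjusted p under 0.05 and orange an unadjusted p under 0.05 only. Ctsl at 7 weeks is the only red point, and 6 of the 7 red or orange points at 7 weeks are lysosome genes.

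The difference between the TETA effects at the 2 ages was tested directly over all 21 libraries. By edgeR 0 of the 36 genes passed in either direction, against 1.67% (TETA effect higher at 7 weeks) and 1.43% (lower) of 14660 genes tested, and 5 of 36 had an unadjusted p under 0.05, against 15.9%. Those were Npc2, Atg9a, Atg16l1, Ctsd and Lamp1, with effect differences (7 weeks minus E18.5, log2) of -0.2, -0.13, 0.14, -0.15 and -0.12; by library totals 2 of the 36 had an unadjusted p under 0.05. For Ctsl the difference was -0.17 (SE 0.082, edgeR adjusted p = 0.323), so its TETA effect was not shown to differ between the ages. In the other pathway lists Atg16l2 alone passed, at 0.42 (SE 0.1, edgeR adjusted p = 0.0184).

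Lysosome genes were set against autophagosome genes within each library, as the mean log2(CPM + 1) of the 11 lysosome genes minus that of the 20 autophagosome genes. At E18.5 this difference was 0.02 ± 0.017 in control (SD, n = 6) and 0.033 ± 0.023 in TETA (SD, n = 6), and the 2 groups' means differed by 0.013, or by 0.0051 without TETA replicate 3-2 and 0.008 without control replicate 1-1. With medians over the genes in place of means the same difference (TETA minus control) was -0.058, so its direction at E18.5 depended on that choice. At 7 weeks it was 0.44 ± 0.017 in control, with libraries from 0.42 to 0.46, and 0.39 ± 0.039 in TETA, with libraries from 0.35 to 0.45 (SD, n = 5 and 4). The 2 ranges overlapped. The lysosome mean alone was 6.71 to 6.76 in the control libraries and 6.65 to 6.69 in the TETA libraries, while the autophagosome mean was 6.25 to 6.30 and 6.24 to 6.29. No test was run on these sums.

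The same quantity differed by 0.42 between ages, from 0.02 ± 0.017 in control brain at E18.5 (SD, n = 6) to 0.44 ± 0.017 at 7 weeks (SD, n = 5). The lysosome mean was 5.94 ± 0.029 at E18.5 and 6.80 ± 0.023 at 7 weeks on the log2 scale, and the autophagosome mean 5.92 ± 0.041 and 6.36 ± 0.02. Taken as medians over the genes in place of means, the difference between ages was 0.33. Both gene groups were higher at 7 weeks, and the lysosome genes by more.

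The comparison of control brain at 7 weeks with control brain at E18.5 gives the level of each gene at both ages. Age cannot be told apart from brain region, sex or count table here, because region and sex are not stated for E18.5 and each age has its own table. Of the 36 genes, 28 were higher at 7 weeks, against 44.0% of 14375 genes tested, 4 were lower, against 45.5%, and 4 were not called; 89.5% of all genes were called in either direction by edgeR. The median log2 difference (7 weeks minus E18.5) was 0.65 for the 36 genes and -0.022 for all genes. The libraries of the 2 ages did not overlap in 31 of the 36 genes, against 80.3% of all genes. Scaling by library totals without TMM moved the median of all genes to -0.17; 26 of the 36 were then higher and 8 lower.

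Tfeb had the largest difference of the 36 genes. It lies at chr17:47737030-47792419 on the plus strand and encodes the factor named above as a driver of lysosome genes. Its lowest, median and highest levels were 0.851, 1.08 and 1.75 CPM in the 6 E18.5 controls, from 17 to 28 counts a library, so the E18.5 level is the least precise of those described here. At 7 weeks its levels were 7.81, 7.90, 6.28, 8.52 and 7.11 CPM. Every 7-week library was above every E18.5 library, and control replicate 1-1 was the highest at E18.5. Tfeb rose by a log2 difference of 2.73 (SE 0.14, edgeR adjusted p = 5.96e-15), a 6.62-fold higher level, and by 2.87 without control replicates 1-1 and 1-2.

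Tfe3, the related factor on the X chromosome, was at 24.5, 25.0 and 26.5 CPM (lowest, median and highest) at E18.5 and at 39.4, 47.2, 41.5, 44.7 and 43.9 CPM at 7 weeks. The ages did not overlap, and Tfe3 rose by 0.78 (SE 0.051) on the log2 scale. Per kilobase of exon Tfeb was the lowest of the 36 genes at both ages, at 0.205 ± 0.055 CPM per kb at E18.5 and 1.33 ± 0.15 at 7 weeks (SD, n = 6 and 5), and Tfe3 stood above it at 2.74 ± 0.098 and 4.68 ± 0.32.

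Of the 11 lysosome genes 10 were higher at 7 weeks and 1 was lower, with a median log2 difference of 0.83. Ctsb and Ctsd led them. Ctsb lies at chr14:63122462-63145923 (plus strand); its lowest, median and highest levels were 165, 169 and 185 CPM at E18.5, and its levels were 646, 670, 655, 634 and 679 CPM at 7 weeks. The ages were far apart, and Ctsb rose by 1.93 (SE 0.037), a 3.82-fold difference. Ctsd lies at chr7:142375911-142388038 (minus strand); its lowest, median and highest levels were 50.7, 56.0 and 60.7 CPM at E18.5, and its levels were 207, 225, 208, 204 and 217 CPM at 7 weeks. It rose by 1.93 (SE 0.046), with no overlap.

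Lamp1, at chr8:13159161-13175338 (plus strand), was already abundant before birth, at 204, 219 and 229 CPM (lowest, median and highest) at E18.5. At 7 weeks it was at 335, 349, 352, 344 and 369 CPM, a rise of 0.68 (SE 0.036). The other rises ran from 0.33 for Mcoln1, the lysosomal calcium channel, to 1.01 for Lamp2, with Ctsa and Grn, which encode cathepsin A and progranulin, at 0.94 and 0.97.

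Npc2, at chr12:84754562-84773152 (minus strand), was the 1 lysosome gene that was lower at 7 weeks. At E18.5 its lowest, median and highest levels were 72.8, 79.2 and 87.0 CPM, and its levels at 7 weeks were 58.9, 60.1, 56.5, 56.6 and 61.4 CPM. Every 7-week library lay below every E18.5 library, and Npc2 fell by 0.43 on the log2 scale (SE 0.046, edgeR adjusted p = 5.46e-09). Its partner in cholesterol export, Npc1, rose by 0.64 (SE 0.044).

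TFEB and TFE3 are known to bind a palindromic element with CACGTG at its centre near the start of lysosome genes, so the promoters of the 36 genes were searched for these letters, whichever way the gene differed between ages. RefSeq promoters (GRCm38.p6, 250 bases before to 50 after each start) were held for 28 of the 36 genes; Rb1cc1, Becn1, Pik3c3, Atg12, Atg16l1, Map1lc3a, Ctsb and Npc1 had no entry. CACGTG, which reads the same on both strands, was in the promoters of 9 of the 28 genes (32.1%), against 11.4% of the 11379 genes tested between ages that had a promoter and 8.09% of all 27025 genes with a promoter. It was in 5 of 9 lysosome genes, 3 of 4 conjugation genes (Atg3, Atg5 and Atg7) and 1 of 6 initiation genes (Atg14), and in 0 of 4 LC3 and GABARAP genes, 0 of 3 cargo receptors and 0 of 2 transcription factors. The longer word TCACGTGA, which contains CACGTG, was in Ctsa, Ctsd, Mcoln1 and Atg3. A gene can have more than 1 start, so the 28 genes had 33 promoter windows. Each gene, of the 36 or of all genes, was counted if any of its windows held the word. The Atg7 and Atg14 windows with the word lie inside those genes as GENCODE M21 annotates them. The word in Ctsl and in Ctsa also lies inside the annotated gene. The same holds for the word in Ctsd at chr7:142387908-142387937 and in Mcoln1 at chr8:3500462-3500491. Distances are counted from the RefSeq start, which differs from the GENCODE start in these genes, so a site before the former can lie inside the gene. Of the 3 conjugation genes with the word, 1 was called higher between ages and 2 were not called, and Atg14 was lower. The matches describe these windows only. The 5 lysosome genes are shown with 1 site each, 5′ to 3′ on the strand of the gene, with CACGTG in capitals.
Ctsd, chr7:142387908-142387937, minus strand, word 98 bases before the start: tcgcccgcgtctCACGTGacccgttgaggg
Mcoln1, chr8:3500462-3500491, plus strand, 45 bases before: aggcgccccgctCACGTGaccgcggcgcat
Lamp1, chr8:13159088-13159117, plus strand, 61 bases before: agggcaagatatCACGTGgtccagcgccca
Ctsa, chr2:164833749-164833778, plus strand, 12 bases before: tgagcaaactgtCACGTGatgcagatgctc
Ctsl, chr13:64370739-64370768, minus strand, 236 bases before: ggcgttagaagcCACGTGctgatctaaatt
Ctsa, Ctsd and Mcoln1 each had a second such site and Lamp1 had 4 in all, the most of any of the 28 genes. These 5 genes rose between ages by log2 differences of 0.33 (Mcoln1), 0.68 (Lamp1), 0.83 (Ctsl), 0.94 (Ctsa) and 1.93 (Ctsd); the lysosome genes without the word whose promoter was held were Lamp2 (1.01), Hexa (0.81), Grn (0.97) and Npc2 (-0.43).

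The LC3 and GABARAP family held both the second largest rise and the largest decrease among the 36 genes. Gabarapl1, at chr6:129533160-129542346 (plus strand), had lowest, median and highest levels of 164, 171 and 182 CPM at E18.5. At 7 weeks it was at 774, 763, 778, 758 and 742 CPM. The ages were far apart, and Gabarapl1 rose by 2.15 (SE 0.035, edgeR adjusted p = 8.04e-25), a 4.44-fold difference.

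Gabarap, the founding member of the family, at chr11:69991143-69994951 (plus strand), went the other way. Its lowest, median and highest levels were 163, 171 and 178 CPM at E18.5, and its levels at 7 weeks were 101, 99.98, 98.3, 97.2 and 96.6 CPM. No libraries overlapped, and Gabarap fell by 0.79 on the log2 scale (SE 0.035, edgeR adjusted p = 3.28e-16). As TMM-scaled levels not divided by gene length, Gabarap and Gabarapl1 were at 171 ± 5.75 and 172 ± 6.74 CPM at E18.5 (SD, n = 6), and at 98.7 ± 1.96 and 763 ± 14.2 CPM at 7 weeks (SD, n = 5).

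The other 3 family members rose by less. Map1lc3a, which encodes LC3A, had lowest, median and highest levels of 103, 115 and 123 CPM at E18.5 and levels of 129, 153, 140.2, 141 and 157 CPM at 7 weeks, a rise of 0.33 (SE 0.049). Map1lc3b, which encodes LC3B, the usual marker of autophagosomes, was at 193, 213 and 224 CPM (lowest, median and highest) at E18.5 and at 244, 262, 248, 239 and 259 CPM at 7 weeks, a rise of 0.24 (SE 0.039). Gabarapl2 was at 66.4, 70.1 and 87.4 CPM at E18.5 and at 99.98, 118, 116, 106 and 110.1 CPM at 7 weeks, a rise of 0.61 (SE 0.057). In each of the 3 the ages did not overlap, and control replicate 1-1 was the highest E18.5 library.

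Per kilobase of exon, the family's order changed between ages. At E18.5 Map1lc3a (96.9 ± 5.94 CPM per kb), Gabarap (92.8 ± 3.12) and Gabarapl1 (85.4 ± 3.35) had the 3 highest means of all 36 genes (SD, n = 6), and each overlapped the next in its range over libraries, as Gabarapl1 did the fourth, Lamp1 (81.4 ± 3.25). Gabarapl2 and Map1lc3b followed at 31.2 ± 3.28 and 28.2 ± 1.44 and also overlapped. At 7 weeks Gabarapl1 stood at 379 ± 7.03 CPM per kb, Map1lc3a at 122 ± 9.53, Gabarap at 53.5 ± 1.06, Gabarapl2 at 47.3 ± 3.12 and Map1lc3b at 33.3 ± 1.29 (SD, n = 5), and no neighbours in this order overlapped. The length is that of all annotated exons of the gene, so a gene with many long isoforms is understated.

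Among the cargo receptors, Sqstm1 was at 182, 192 and 203 CPM (lowest, median and highest) at E18.5 and at 465, 442, 452, 480 and 476 CPM at 7 weeks. It rose by 1.27 (SE 0.037) with no overlap, and at 7 weeks was second to Gabarapl1 per kilobase, at 138 ± 4.75 CPM per kb (SD, n = 5), a range that overlapped that of Lamp1 at 131 ± 4.66. Optn, which encodes optineurin, a receptor for damaged mitochondria, rose by 0.73 (SE 0.071). Nbr1, a receptor related to p62, was not called (-0.065, SE 0.032, edgeR adjusted p = 0.063), although its 7-week libraries all lay below its E18.5 libraries; by library totals it was lower (-0.22, adjusted p = 1.23e-06), as it was with no filter on low counts (-0.081, adjusted p = 0.0343) and with TETA libraries in place of control libraries at both ages (-0.14, adjusted p = 0.00116).

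Of the 9 initiation and nucleation genes, 8 were higher at 7 weeks and 1 lower, with a median of 0.62. The rises ran from 0.12 for Rb1cc1, which encodes the scaffold FIP200 of the ULK kinase complex, to 1.61 for Atg9a, and included Becn1 (0.62), the beclin subunit of the lipid kinase complex. The Rb1cc1 rise turned to -0.032 with library totals in place of TMM. Atg14, at chr14:47540893-47570649 (minus strand), which directs that lipid kinase to the forming autophagosome, was the lower gene. At E18.5 its lowest, median and highest levels were 23.4, 24.4 and 29.5 CPM, and its levels at 7 weeks were 21.1, 22.8, 23.6, 22.9 and 22.9 CPM. The ages overlapped, control replicate 1-1 was the highest, and Atg14 fell by 0.14 on the log2 scale (SE 0.058, edgeR adjusted p = 0.0265). The call was lost without control replicate 1-1 at E18.5 (adjusted p = 0.089), without control replicate 1 at 7 weeks (0.0838), without E18.5 controls 1-1 and 1-2 (0.123), by DESeq2 (0.0822), with a mean of at least 50 counts (0.126), with undivided counts (0.0552) and with TETA libraries in place of control libraries (0.113).

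The 6 conjugation genes moved least, with 2 higher, 1 lower and 3 not called, and a median of 0.014. Atg7, which encodes the activating enzyme of the pathway, rose by 0.66 (SE 0.055) and Atg16l1 by 0.21 (SE 0.044); by library totals the Atg16l1 difference was 0.053 and not called (edgeR adjusted p = 0.26). Atg12, at chr18:46730144-46741580 (minus strand), encodes the ubiquitin-like protein joined to ATG5. Its lowest, median and highest levels were 106, 109.6 and 111 CPM at E18.5, and its levels at 7 weeks were 78.2, 79.4, 74.4, 73.6 and 76.4 CPM. The ages did not overlap and Atg12 fell by 0.52 on the log2 scale (SE 0.035, edgeR adjusted p = 1.51e-12). Atg3, Atg4b and Atg5 had log2 differences of 0.05, -0.022 and -0.055, and whether they were called depended on the method. By library totals all 3 were lower by edgeR, at -0.10 (adjusted p = 0.039), -0.17 (adjusted p = 0.000253) and -0.21 (adjusted p = 0.00095). Atg3 was higher with a mean of at least 50 counts (0.097, edgeR adjusted p = 0.0456) and with TETA libraries in place of control libraries (0.096, adjusted p = 0.0417), and Atg4b was at 0.0014 by DESeq2.

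**Figure D3:**
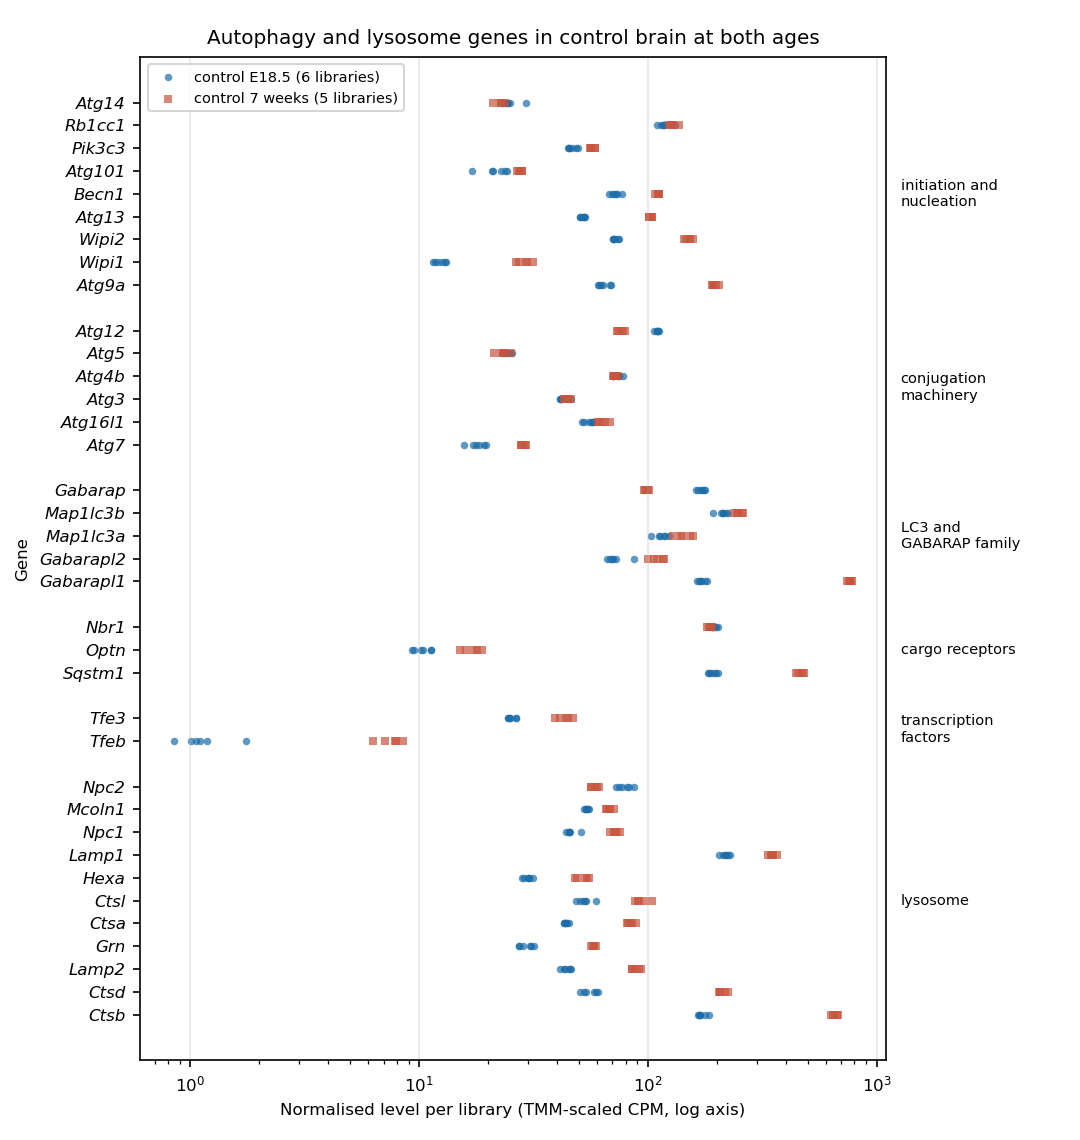
Level of each of the 36 genes in TMM-scaled CPM (horizontal axis, log scale) in each control library at E18.5 (blue circles, 6 libraries) and 7 weeks (red squares, 5 libraries), grouped by role. Tfeb, Gabarapl1, Ctsb and Ctsd show the widest gaps, and Gabarap, Atg12, Npc2 and Atg14 are the 4 genes called lower at 7 weeks.

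Of 133 other genes of the pathway tested between ages, 99 were higher at 7 weeks, 17 lower and 17 not called, with a median of 0.67. Over all genes tested between ages 44.0% were higher and 45.5% lower. The share called in either direction was 87.2%, below the 89.5% of all genes. The genes named in these lists are those with the smallest p-values in each. Of the 18 V-ATPase genes 16 were higher and 1 lower (median 1.34), among them Atp6v1g2 (3.14), Atp6v1b2 (1.71) and Atp6v1c1 (2.07), all subunits of the cytosolic part of the pump. Of 40 other hydrolases and cofactors 36 were higher and 1 lower (median 0.89), among them Ctss, a cathepsin typical of microglia (3.45), Psap, the precursor of the saposins (1.91), and Arsb, a sulfatase (1.86). Of 33 membrane and transport genes 21 were higher and 8 lower (median 0.61), among them Lamp5, a LAMP relative of neurons (7.22), the sorting receptor Sort1 (1.95) and Laptm4b (3.32).

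Of 38 other autophagy genes 23 were higher and 6 lower (median 0.30), among them the mitophagy receptor Bnip3 (1.86), the protease Atg4c (1.28) and the endoplasmic reticulum receptor Tex264 (0.99). Of 4 tested MiT/TFE regulators 3 were higher, among them Mitf, a TFEB relative (2.63), and Fnip1, a partner of folliculin (0.66), and 1 was lower, Fnip2 (-1.47). All values in these lists are log2 differences from the edgeR fit.

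Cell-type markers moved with these differences between ages. Of 12 microglia markers 11 were higher at 7 weeks and 1 lower, with a summed level of 79.1 to 87.2 CPM at E18.5 and 387 to 434 at 7 weeks. All 8 oligodendrocyte markers were higher, from 61.2 to 71.2 CPM up to 6799 to 8022, and all 8 astrocyte markers, from 329 to 381 up to 1310 to 1494. Of 8 neuron markers 4 were higher and 4 lower, with sums of 4975 to 5510 CPM at E18.5 and 8856 to 9032 at 7 weeks. All 5 blood markers tested were lower (median log2 difference -1.99), with sums of 126 to 257 CPM at E18.5 and 35.1 to 52.9 at 7 weeks. Of 8 endothelial markers 4 were higher and 2 lower, of 13 striatum markers 9 were higher and 3 lower, and of 6 choroid plexus markers tested 4 were higher and 2 lower. Their part in the differences of the 36 genes was not tested.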

How the data were processed

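The authors deposited whole-number counts per gene symbol, 1 table per age, per the file headers. Libraries were stranded poly(A) libraries (TruSeq), per the labels' protocols. STAR 2.7.1a, featureCounts 2.0.1 and the mm10 build are named in the submitters' processing notes; the annotation, the strand setting and the handling of reads shared by near-identical genes (such as pseudogene copies of LC3 and GABARAP genes) are not given in the sources used here. Every column matched 1 sample, and no replicate pair agreed within counting noise. Counts of 1940 E18.5 genes were divided by 11 first.

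Each comparison was fitted with edgeR 4.0.16 (quasi-likelihood test, filterByExpr with a minimum count of 10, TMM, Benjamini-Hochberg adjustment over all genes tested, threshold 0.05) in R 4.3.3 with limma 3.58.1: each age alone, both control groups together, and all 21 libraries for the difference of TETA effects. The fit was also run on simulated data, whose planted changes were larger than those of the 36 genes within an age. The outcome of that run is not used here. CPM were computed here with TMM factors of the same fit. Alternatives were DESeq2 1.42.0, a filter left out or set at a mean count of 50 or more, library totals, undivided counts, each library left out, a replicate block, summed libraries, a striatum covariate and TETA libraries between ages; leaving out libraries that stand apart was added after seeing the data. Levels per kilobase use GENCODE M21 exons (GRCm38). The 36 genes and all lists were chosen with earlier results of these data known. Values in full were given for genes called and the 3 smallest p within an age, the 4 largest and 4 smallest differences between ages, and 10 fixed genes, and for at most 3 genes of each other list; other members are named as ends of ranges or within small counts, after their values were seen. Figures used Python 3.11.15 with matplotlib 3.10.9.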

Additional observations from a re-analysis of the deposited data

Results flagged for a closer look

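Of 144 sets of values (36 genes in 4 groups), 12 held a library far from the others of its group, where chance at 1 in 20 gives 7.2. The number given is the gap to the nearest library as a share of the group's range on the log2 CPM scale. At E18.5 control replicate 1-1 was high for Atg14 (0.713) and Gabarapl2 (0.662), and control replicate 2-2 was low for Atg12 (0.652) and high for Npc1 (0.733). TETA replicate 1-2 at E18.5 was low for Map1lc3a (0.742) and Ctsd (0.69). At 7 weeks control replicate 3 was high for Rb1cc1 (0.732) and control replicate 4 low for Becn1 (0.717). TETA replicate 4 was high for Rb1cc1 (0.904), and TETA replicate 2 was low for Wipi1 (0.887) and Gabarapl2 (0.857) and high for Lamp1 (0.841). The distance of Lamp1 in TETA replicate 2 stands beside its uncalled difference at 7 weeks: that library held 325 CPM and the other 3 TETA libraries 307 to 310.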

How the results depend on the processing

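At E18.5 the number of genes called over the whole table was 0, 10 by DESeq2, 2 with libraries sharing a first number summed, 0 to 7 with 1 library left out (3 without control 3-2, 7 without TETA 1-2) and 3 with 3 libraries left out; none of the 36 genes was called under any of these. At 7 weeks 1418 genes were called, 927 to 1392 with 1 library left out (927 without TETA 3) and 0 with the striatum covariate. Genes of the 36 called lower there were 2 by DESeq2 (Ctsl and Npc2), 0 with the striatum covariate and 0 to 1 with 1 library left out (0 without control 2, control 3 or TETA 4; Npc2 in place of Ctsl without TETA 1). With the striatum covariate, Npc2 was at 0.072, Lamp2 at 0.055 and Atg16l1 at -0.17, none called. Ctsl went from -0.18 to -0.44 (edgeR adjusted p = 0.894). The striatum sums did not overlap between the 7-week groups, so this fit cannot separate the TETA effect from striatal content. By library totals the share of called genes that were higher at 7 weeks went from 57.0% to 67.6%, and for the difference of effects from 54.0% to 72.0%. Between ages, genes of the 36 called lower went from 4 to 8 by library totals, where Rb1cc1 turned to -0.032 and Atg3 to -0.10; Atg4b turned to 0.024 with a mean of at least 50 counts and to 0.0014 by DESeq2. The lysosome minus autophagosome difference, with medians over genes, was -0.058 for TETA at E18.5 (0.013 with means) and 0.33 between ages (0.42 with means). The cause was not tested.

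A replicate block left 0 genes called at E18.5 and 1072 at 7 weeks, Ctsl among them; control 5, with no partner, adds nothing to that fit. The numbers were not taken as pairs, since the correlation of same-numbered libraries was not above 0.1 in every pair: it was -0.28 to 0.28 in the E18.5 groups and -0.069 to -0.03 in the 7-week groups. At E18.5 the 4 libraries numbered 1-1 and 1-2, of 12, correlated best with their own number, a hint from the data and not from the labels; at 7 weeks 0 of 8 did. At 17 to 28 counts a library, Tfeb at E18.5 is limited by depth. The other 35 genes were measured more deeply.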
